A study of Chlamydomonas reinhardtii with 42 samples.

Results

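The 100 genes described here are those of *Chlamydomonas reinhardtii* whose difference between acetate-supplied and acetate-free cells became most negative between the first and the second day, out of 13886 genes tested in a table of 17741. They were selected on measured values. For each gene the acetate difference, the mean log2 CPM with acetate minus that without, was taken at 6 times. CPM are counts scaled to library size, here also normalised by the trimmed mean of M values. The day 2 value minus the matched day 1 value was then formed in low light, after 15 min and after 60 min of high light. The score was the least negative of these 3 day differences, so a gene had to move down in all 3 light states to be ranked. The cells were the wild-type strain CC-125, grown in acetate-containing medium, then kept for 24 h in Sueoka's high salt medium (HSM) in low light (LL, 5 µmol photons m-2 per second). At time 0 the cultures received 20 mM sodium acetate or stayed in HSM. Both were sampled in LL at 15, 240 and 1440 min, and portions moved to high light (HL, 300 µmol photons m-2 per second) at 240 or 1440 min were sampled after 15 and 60 min there, at 255, 300, 1455 and 1500 min. The times from 240 to 300 min are called day 1 and those from 1440 to 1500 min day 2. Each of the 14 conditions had 3 libraries. All cells, controls included, had been pre-grown with acetate and kept without it for 24 h before time 0. The HSM cultures stayed without acetate from then on, so their time without it grew with the sampling time.

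*Chlamydomonas* raises a carbon concentrating mechanism (CCM) when inorganic carbon is scarce: transporters bring bicarbonate through the plasma membrane and the chloroplast envelope, and carbonic anhydrases interconvert it with CO2. Photosynthesis in HL draws on the same carbon, and excess light is dissipated as heat by qE. LHCSR3 proteins are its main effectors in this alga, and LHCSR1 can contribute where LHCSR3 is absent. Acetate is a carbon source that the cells take up and respire, releasing CO2, and genes of both systems are known to be repressed by it.

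Library totals lay between 19232757 and 34098899 counts, and the 100 most abundant genes took 36.7 to 76.3% of them, so levels are given as CPM normalised by the trimmed mean of M values (TMM). CPM is a share of all mRNA, so a lower value can stand for less of a transcript or for more of others. Several single libraries stood apart for the 27 genes among the 100 raised most by HL (below). HSM replicate 1 at 240 min was the lowest of its 3 in 24 of the 27, beside 44.1% of all genes tested. Its median was 0.353 times the mean of the others. HSM replicate 1 at 1440 min was the lowest in 23, beside 30.2%. HSM replicate 3 at 15 min was the highest in 25, beside 40.8%, and acetate replicate 2 at 255 min in 25, beside 35.1%. HSM replicate 2 at 1440 min was the highest of its 3 in 20 of the 27, beside 42.7% of all genes tested. Of all libraries it had the lowest TMM factor, 0.454, and the highest share of the 100 most abundant genes, 76.3%. Every test count and the choice of genes were recomputed without each library in turn, with ranges in the closing section.

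The scores ran down to -5.16 for LCR1. The last genes inside the limit of 100 were Cre03.g179961, Cre07.g312550 and Cre05.g233850, at -1.66, -1.66 and -1.65. The first outside were Cre11.g477550, Cre12.g517681 and Cre06.g270450, at -1.65, -1.64 and -1.64, so the limit cuts a continuous series of values. Without HSM replicate 1 at 240 min, 88 of the 100 stayed inside it. Among those that left were Cre17.g720900, Cre02.g112366 and Cre03.g204577, whose scores were then -0.72, -0.79 and -0.92, against -1.90, -1.78 and -1.96 with all libraries, and Cre02.g112333, at -1.55 and rank 114 against -2.69 and rank 20. The score of Cre04.g223300 was -2.05 without this library and -3.41 with it, and that of Cre07.g334750 -1.70 and -2.59. These 6 genes were those whose score shrank over 1.5 times, and all 100 scores remained below 0.

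The summed level of the 100 genes was far lower with acetate than in HSM on day 2, a description of what the rule chose. Summed over the 100 genes, the 3 acetate libraries at 1440 min held 306 to 342 CPM, against 7074 to 9958 CPM in the HSM libraries. At 1455 min the acetate libraries held 381 to 414 CPM, against 29540 to 32810 CPM in HSM, and at 1500 min 604 to 1113 CPM, against 19490 to 20950 CPM in HSM. On day 1 the sums were nearer to each other in LL and after 60 min of HL, at 1747 to 1916 CPM with acetate against 3963 to 6917 CPM in HSM at 240 min, and at 12670 to 12820 CPM with acetate against 18320 to 20260 CPM in HSM at 300 min, but far apart after 15 min of HL, at 2913 to 4576 CPM with acetate against 23900 to 26750 CPM in HSM at 255 min. The mean level of 47, 56 and 51 of the 100 genes lay under 1 CPM with acetate at 1440, 1455 and 1500 min, against 2, 4 and 2 genes in HSM. The sums are carried by the abundant genes, HLA3 and Cre04.g223100 among them (below), and the median gene was at 0.943 CPM with acetate and at 16.2 CPM in HSM at 1500 min.

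The rule fixes that the acetate difference fell, but neither its sign nor the medium in which the level moved. The median acetate difference of the 100 genes on the log2 scale was -0.82, -1.38 and -0.78 at 240, 255 and 300 min, and -3.26, -3.97 and -3.57 at 1440, 1455 and 1500 min, beside medians over all genes between -0.08 and 0.15. In 66 genes acetate levels were lower at all 6 of these times, so the name of a deepening repression describes 66 of 100. In 20 more the sign was mixed on day 1 and negative throughout day 2, in 11 acetate levels were higher at all 3 times of day 1 and lower at all 3 of day 2, and 3 genes, Cre16.g686750, Cre02.g105851 and Cre06.g300600, were still higher with acetate at some time of day 2. Every acetate library was lower than every HSM library in 54, 70 and 65 of the 100 genes at 240, 255 and 300 min, and in 96, 96 and 97 at 1440, 1455 and 1500 min. The shares over all genes tested were 34.2%, 33.3% and 35.6% on day 1 and 33%, 33.4% and 38.3% on day 2, and since the rule used these libraries nothing is read from the contrast.

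**Figure D1:**
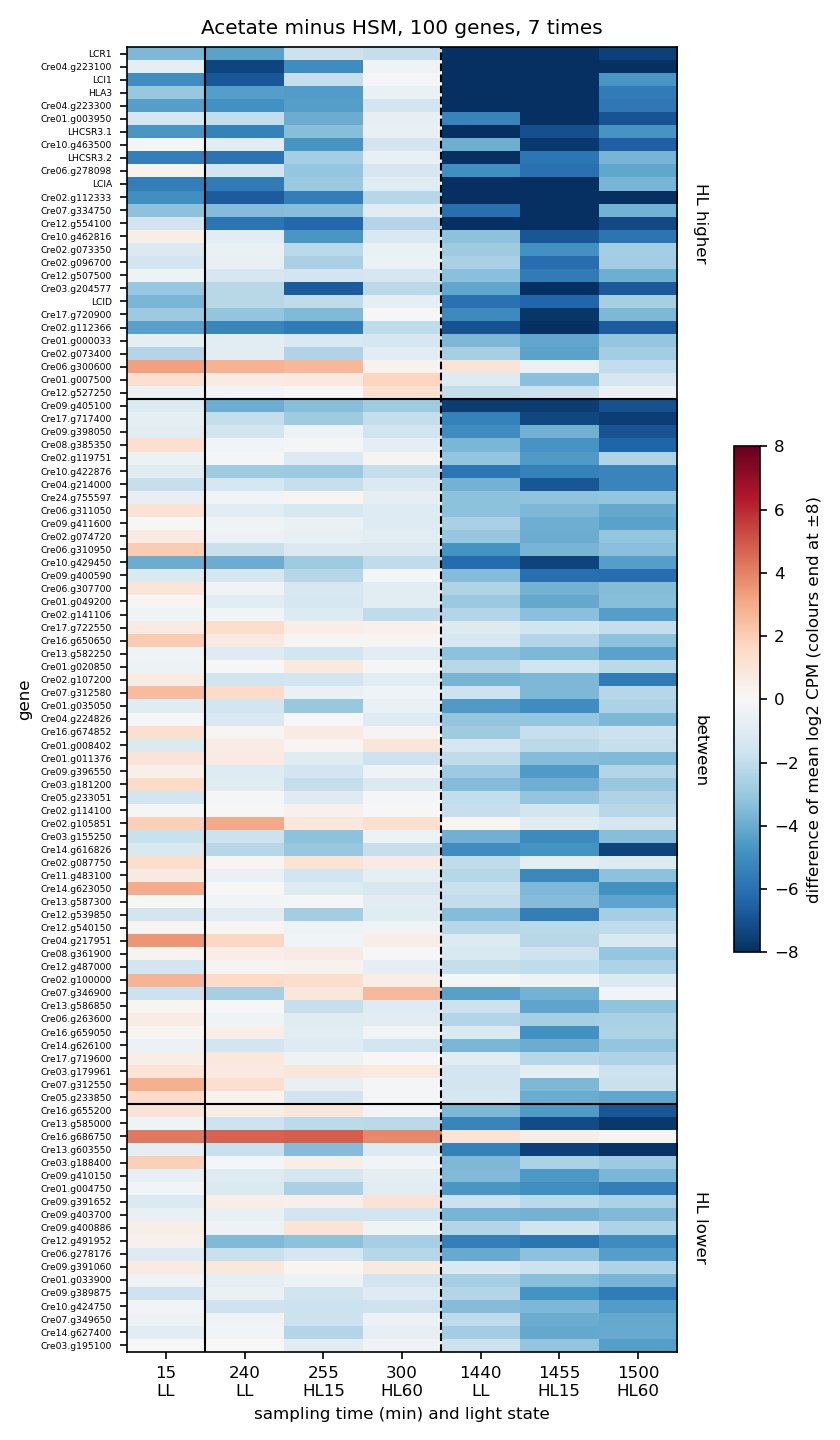
Acetate minus HSM (difference of mean log2 CPM, 3 libraries per condition) for each of the 100 genes (rows) at the 7 sampling times (columns), with the genes grouped by their HL response and ordered by score within a group. Columns of 1440 to 1500 min are blue in nearly all rows, while the 15 min column, which was no part of the score, holds both signs.

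In the mean of the 3 light states, the larger movement was in the acetate cultures in nearly all of the genes. Averaged over the 3 light states, the level with acetate was lower on day 2 than on day 1 in 100 of 100 genes, by a median of -2.63 on the log2 scale, and it was lower in each of the 3 light states in 98. The level in HSM changed by a median of 0.15, rising in all 3 light states in 38 genes and falling in all 3 in 12. In 99 genes the fall with acetate was larger than the rise in HSM, if any, in the mean of the 3 light states. The exception was Cre09.g391652, with 9.46, 8.59 and 10.6 CPM with acetate at 1440 min and 8.70, 12.8 and 12.6 CPM at 240 min, against 31.9, 30.03 and 33.9 CPM in HSM at 1440 min and 9.37, 7.02 and 6.63 CPM at 240 min. In LL the level of this gene was higher on day 2 in HSM and changed by only -0.23 with acetate. In LL alone the balance differed: in 17 of the 100 genes, 14 of them among the 27 raised most by HL, the rise in HSM was larger than the fall with acetate, against 2 genes after 15 min and 1 gene after 60 min of HL. Between the LL samples the acetate level of LCID changed by -0.25 and its HSM level by 3.51, that of LHCSR3.1 by -0.66 and 2.48, that of LHCSR3.2 by -0.38 and 2.51, and that of Cre07.g334750 by -0.15 and 2.45. These LL changes in HSM start from the 240 min samples, in which HSM replicate 1 was low for most HL-raised genes. They end at the 1440 min samples, in which HSM replicate 1 was the lowest in 23 and replicate 2 the highest in 20 of the 27.

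**Figure D2:**
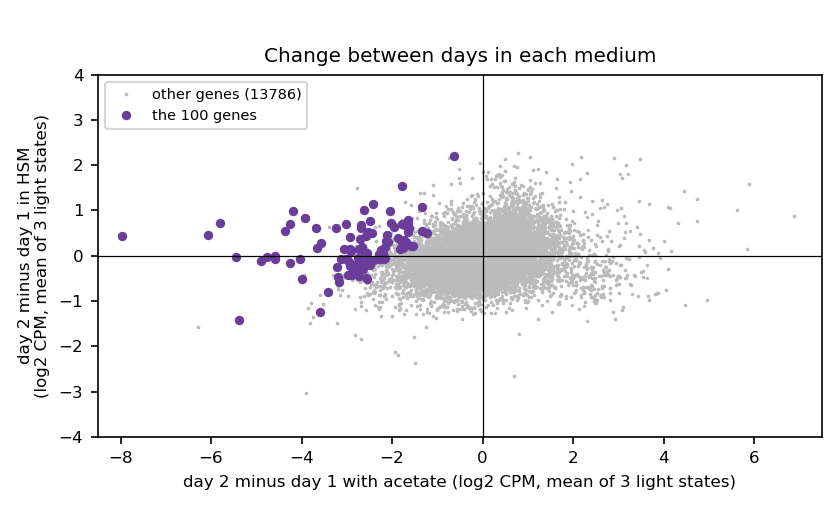
Change of the mean log2 CPM on day 2 relative to day 1, averaged over 3 light states, with acetate (x axis) and in HSM (y axis), for the 100 genes (purple) and the 13786 other genes tested (grey). The 100 genes spread along the x axis to -7.97 and over a narrower range on the y axis, where 7 of them lie beyond 1 either way, with Cre09.g405100 at -1.42, LCID at 1.55 and Cre09.g391652 highest.

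LCR1 (Cre09.g399552), a MYB-related transcription factor that activates low-CO2 genes, had the lowest score. It was at 1.21, 1.63 and 2.67 CPM with acetate at 240 min, against 18.9, 39.9 and 62.0 CPM in HSM. After 15 min of HL on day 1 it reached 30.8, 56.5 and 38.1 CPM with acetate, against 133, 128 and 140 CPM in HSM. The acetate and HSM libraries did not overlap at either time, and in both media the level was higher after HL. On day 2 the acetate level was far lower: LCR1 was at 0.07, 0.12 and 0.04 CPM with acetate at 1455 min, against 231, 229 and 219 CPM in HSM. At 1440 min a single read was counted in the 3 acetate libraries together, against 3276 in the HSM libraries, a 5649-fold ratio with a counting interval (95%, exact Poisson) of 1014 to 223100. At 1500 min it was at 0.04, 0.37 and 0.49 CPM with acetate, against 50.3, 57.9 and 56.0 CPM in HSM.

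The genes for inorganic carbon transport on the CCM list were LCI1, HLA3 and LCIA. LCI1 (Cre03.g162800), a plasma membrane protein of carbon uptake, had 388, 361 and 469 CPM with acetate after 60 min of HL on day 1, against 649, 374 and 362 CPM in HSM, and the libraries of the media overlapped. After 60 min of HL on day 2 it had 17.9, 18.2 and 14.9 CPM with acetate, against 405, 406 and 479 CPM in HSM, 25.3-fold higher in HSM. The gap was widest after 15 min of HL on day 2, with 0.20, 0.27 and 0.09 CPM with acetate against 2162, 1703 and 1839 CPM in HSM, whereas after 15 min of HL on day 1 the acetate libraries had held 356, 678 and 399 CPM.

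HLA3 (Cre02.g097800), an ABC-type bicarbonate transporter of the plasma membrane, had 2895, 3036 and 3139 CPM with acetate at 300 min, against 4574, 4300 and 4501 CPM in HSM. At 1500 min it had 93.8, 62.1 and 157 CPM with acetate, against 4380, 4834 and 5055 CPM in HSM, so the ratio of HSM to acetate means was 1.48 on day 1 and 45.6 on day 2. LCIA (Cre06.g309000), a transport protein of the chloroplast envelope, had 563, 530 and 562 CPM with acetate at 300 min, against 1259, 1038 and 966 CPM in HSM, and 86.7, 55.7 and 119 CPM with acetate at 1500 min, against 1023, 1022 and 1194 CPM in HSM. For all 3 transport genes the HSM libraries of the 2 days overlapped after 60 min of HL, while every acetate library of day 2 was lower than every acetate library of day 1.

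LCID (Cre04.g222800), a soluble chloroplast protein related to LCIB, showed a smaller day 2 gap, with 47.8, 35.4 and 68.7 CPM with acetate at 1500 min against 307, 283 and 351 CPM in HSM, and 146, 123 and 143 CPM with acetate at 300 min against 289, 238 and 185 CPM in HSM. Its groups did not overlap at either time. LCIE, another CCM gene, fell just outside the limit, at rank 105 with a score of -1.63. In all, 5 of the 71 genes tested from the CCM list are among the 100 (7.04%, against 0.72% of all genes). The median score of the list, 0.56, was close to that of all genes, 0.51. Scores under -1 were found in 8 of the 71, beside 401 of all 13886 genes tested. The lists were assembled with results of these data known.

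The 2 photoprotection genes among the 100, of 55 tested (3.64%), were LHCSR3.1 (Cre08.g367500) and LHCSR3.2 (Cre08.g367400). They are neighbouring, near-identical copies, so how the reads divide between them is uncertain. LHCSR3.1 had 1147, 1163 and 1106 CPM with acetate at 300 min, against 1629, 1870 and 1720 CPM in HSM, and 74.4, 33.1 and 135 CPM with acetate at 1500 min, against 1783, 1900 and 1888 CPM in HSM. The ratio of HSM to acetate means was 1.53 on day 1 and 22.9 on day 2, although the groups did not overlap on either day. In acetate LL cultures the transcript was near the limit of counting on both days, at 0.09, 0.33 and 0.16 CPM at 1440 min and 0.16, 0.23 and 0.79 CPM at 240 min. LHCSR3.2 followed it, with 173, 95.3 and 257 CPM with acetate at 1500 min, against 2059, 2215 and 2202 CPM in HSM.

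**Figure D3:**
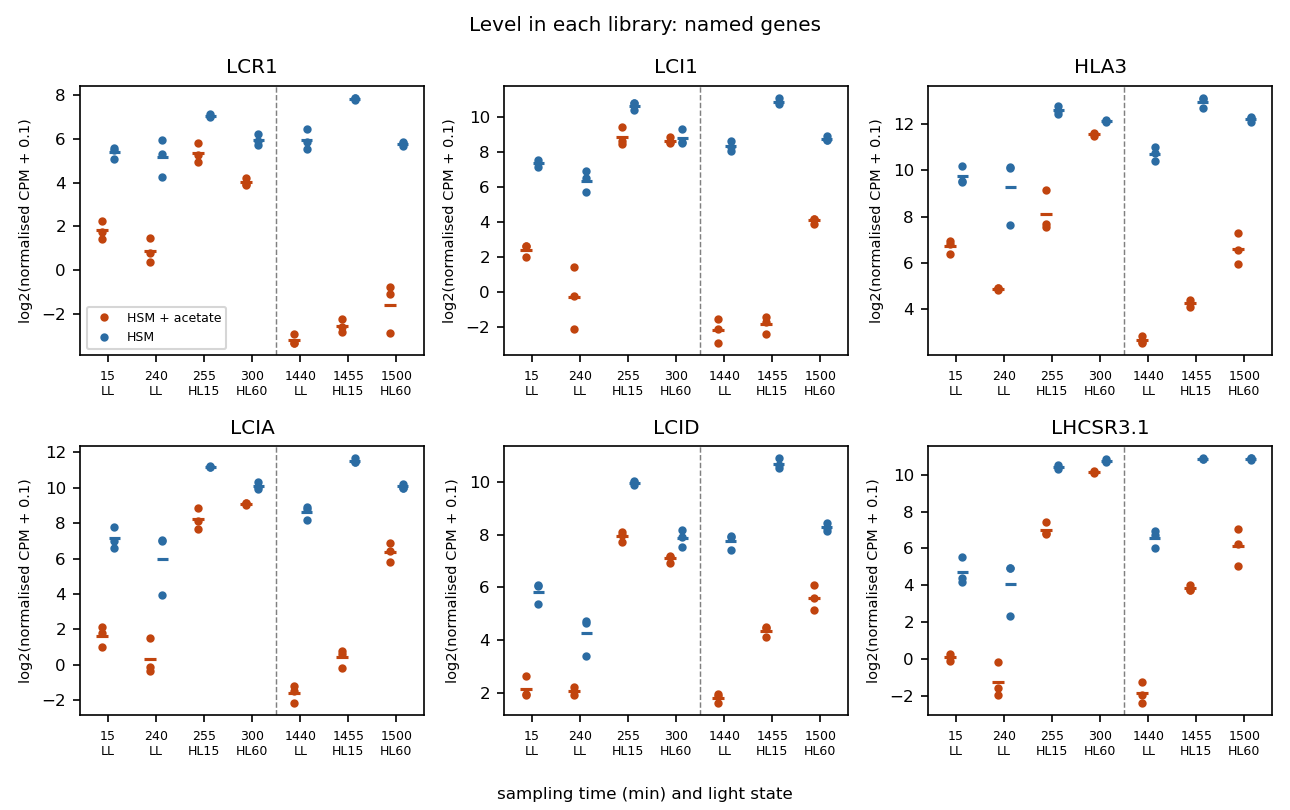
Level of LCR1, LCI1, HLA3, LCIA, LCID and LHCSR3.1 in each library, as log2(normalised CPM + 0.1), at the 7 sampling times, with acetate (red) left of HSM (blue); dots are libraries, bars are means of 3, and the dashed line parts day 1 from day 2. The means of the media lie closer together at 300 min than at 1500 min for every gene; at 300 min the libraries overlap for LCI1 and are separate for the other 5.

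The gene with the next lowest score, Cre04.g223100, had the lowest day difference after 60 min of HL, at -12.4. It had 3579, 3789 and 3462 CPM with acetate at 300 min, against 4539, 4463 and 3915 CPM in HSM, and 0.84, 0.54 and 0.49 CPM with acetate at 1500 min, against 4671, 4036 and 4620 CPM in HSM. HL raised it in acetate cultures on day 1, where the 240 min libraries held 2.41, 4.74 and 12.8 CPM, but hardly on day 2, with 0.55, 0.53 and 0.26 CPM at 1440 min. The 60 min HL response on the log2 scale was 9.39 with acetate on day 1 and 0.43 with acetate on day 2, against 2.27 and 1.36 in HSM. Other genes kept a strong HL response with acetate on day 2 while starting from a lower level: 8.11 for LCIA, 8.09 for LHCSR3.1, 6.46 for LCI1 and 3.94 for HLA3.

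Cre04.g223100 lies in a stretch of 12 neighbouring genes on chromosome 4 (gene order of the v5.5 annotation) that begins with CCP2 and LCID and ends with LCIE and Cre04.g223300. All 12 were tested and 3 are among the 100, namely LCID, Cre04.g223100 and Cre04.g223300, with LCIE and CCP2 scoring -1.63 and -1.17. The stretch is not uniform. CAH2, next to Cre04.g223100, scored -0.43, and 4 genes between these scored above 0.

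Among the other genes of the 100, 4 pairs are direct neighbours: Cre02.g112333 with Cre02.g112366, Cre02.g073350 with Cre02.g073400, Cre07.g312550 with Cre07.g312580, and the 2 LHCSR3 copies. The first pair had nearly no reads with acetate on day 2. Cre02.g112366 had 0 counts in all 3 acetate libraries at 1440 and at 1455 min, and was at least 271-fold and at least 1160-fold lower there than in HSM, taking a floor of 3 counts over the 3 libraries. Cre02.g112333 had 0.40, 0.21 and 0.49 CPM with acetate at 1500 min, against 86.3, 139 and 125 CPM in HSM. At 240 min Cre02.g112333 had 0.13, 0.19 and 0.21 CPM with acetate, against 5.26, 58.5 and 55.5 CPM in HSM, where the low value is that of replicate 1, without which this gene leaves the 100 (above).

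Cre16.g655200 and Cre13.g603550, both lowered by HL, also had low scores. Cre16.g655200, at rank 3, had 85.5, 119 and 111 CPM with acetate at 240 min, against 55.7, 82.5 and 90.4 CPM in HSM. It had 6.31, 5.05 and 8.296 CPM with acetate at 1440 min, against 79.2, 88.0 and 69.6 CPM in HSM, and 0.26, 0.25 and 0.40 CPM with acetate at 1500 min, against 50.5, 36.02 and 44.5 CPM in HSM. The media overlapped at 240 and 300 min, the acetate libraries were the higher ones at 255 min, and on day 2 the HSM mean was 12.05-fold higher at 1440 min and 145-fold higher at 1500 min. Cre13.g603550 was lower with acetate on day 1 already, with 200, 248 and 187 CPM with acetate at 240 min against 685, 850 and 676 CPM in HSM. It had 1.28, 0.62 and 0.35 CPM with acetate at 1500 min against 200, 159 and 162 CPM in HSM, and 78.1, 71.4 and 83.2 CPM with acetate at 300 min against 158, 176 and 158 CPM in HSM, so that its groups were separate on both days. Whatever their HL response, other genes with low scores were at a few reads by then: Cre13.g585000, Cre17.g717400, Cre09.g398050 and Cre09.g405100 had mean levels of 0.387, 0.181, 0.0269 and 0.0294 CPM with acetate at 1500 min, against 90.6, 45.03, 12.17 and 13.6 CPM in HSM.

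Besides LCR1, 5 of the 100 genes are on the list of transcription factors (6 of 371 tested, 1.62%): Cre08.g385350 of the AP2-EREBP family, Cre09.g411600 and Cre12.g507500 of the MYB-related family, and Cre01.g033900 and Cre06.g300600 of the SBP family. Cre08.g385350 had 29.9, 32.2 and 30.1 CPM with acetate at 300 min, against 42.3, 53.5 and 56.7 CPM in HSM, and 0.33, 0.70 and 0.71 CPM with acetate at 1500 min, against 51.3, 50.001 and 56.6 CPM in HSM. Its HSM libraries of the 2 days overlapped, while its acetate libraries did not. Cre06.g300600 was a low transcript, at 2.47, 3.78 and 3.28 CPM with acetate at 15 min against 0.21, 0.26 and 0.29 CPM in HSM, and by 1500 min it had 0.33, 0.41 and 0.26 CPM with acetate against 1.41, 1.36 and 1.77 CPM in HSM.

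The clearest departure from a repressed gene was Cre16.g686750. It had 102, 119 and 152 CPM with acetate at 240 min, against 11.8, 3.51 and 2.34 CPM in HSM, and 7.74, 8.63 and 14.31 CPM with acetate at 1440 min, against 7.43, 2.53 and 4.90 CPM in HSM. The acetate mean was 21.1-fold higher at 240 min and 2.07-fold higher at 1440 min, and the lowest acetate library at 1440 min lay just above the highest HSM library. It is among the 100 with a level that was higher with acetate on both days and less so on day 2. Cre07.g346900 changed sign with light on day 1: with acetate it had 16.9, 9.93 and 17.6 CPM at 300 min, against 1.73, 2.67 and 2.54 CPM in HSM, while at 240 min it had 1.17, 1.05 and 0.89 CPM with acetate, against 4.77, 8.84 and 7.35 CPM in HSM. At 1500 min its groups overlapped, with 2.56, 5.02 and 0.93 CPM with acetate and 2.95, 3.15 and 2.11 CPM in HSM.

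**Figure D4:**
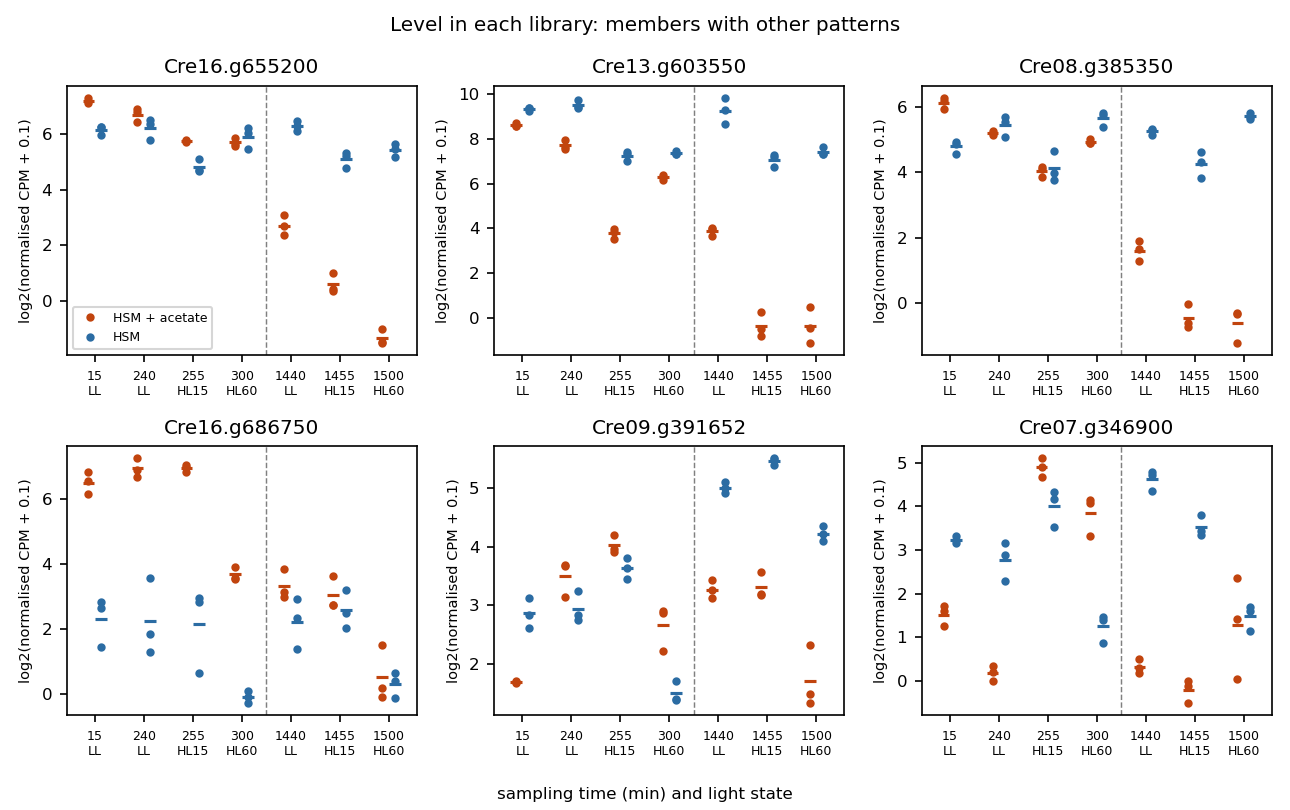
Level of 6 genes with other patterns in each library, as log2(normalised CPM + 0.1), at the 7 sampling times, with acetate (red) left of HSM (blue); dots are libraries, bars are means of 3, and the dashed line parts day 1 from day 2. Cre16.g686750 starts far higher with acetate and overlaps HSM by 1500 min, Cre09.g391652 is higher in HSM on day 2, and Cre16.g655200, Cre13.g603550 and Cre08.g385350 fall under 2 CPM with acetate by 1500 min.

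The acetate difference of the 6 libraries taken at 15 min was no part of the score, so the early acetate response could be tested. These libraries did take part in the expression filter and the TMM normalisation. With edgeR's quasi-likelihood test and Benjamini-Hochberg adjustment over all 13886 genes (threshold 0.05), 43 of the 100 were lower and 29 were higher with acetate, beside 39.3% lower and 34.7% higher among all genes. As a group the 100 genes therefore stood near the background at 15 min, with a median log2 fold change of -0.33 beside -0.12 for all genes, and the 28 others did not pass. The individual genes spread widely. LHCSR3.2 was lowest, with 1.53, 1.28 and 1.51 CPM with acetate against 53.2, 47.5 and 114 CPM in HSM (log2 fold change -5.63 ± 0.52 SE, adjusted p = 5.51e-12 in edgeR). LCIA fell by 5.55 and Cre02.g112333 fell by 5.14, and LCI1, LHCSR3.1, LCID, LCR1 and HLA3 were lower as well, at -4.95, -4.85, -3.69, -3.58 and -3.03. Cre04.g223100 did not pass, with 869, 775 and 569 CPM with acetate against 1071, 1110 and 1542 CPM in HSM (edgeR adjusted p = 0.0803). At the other end Cre16.g686750 was higher with acetate by 4.11 ± 0.47, Cre06.g300600 by 3.63 ± 0.34 and Cre04.g217951 by 3.54 ± 0.17 (log2, SE). Cre04.g217951 had 374, 338 and 354 CPM with acetate, against 32.3, 29.4 and 30.2 CPM in HSM. At 15 min every acetate library was lower than every HSM library in 48 of the 100 genes, beside 41.4% of all genes.

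The light response was tested with contrasts averaged over media and days, which are orthogonal to the day differences when the conditions vary alike. They were formed from libraries that the rule used, and many of the genes were at a few reads with acetate on day 2. The counts of genes below are therefore a description. After 15 min of HL, 45 of the 100 genes were higher and 38 lower than in LL, beside 38.8% and 43.1% of all genes. After 60 min, 39 were higher and 41 lower, beside 43.8% and 37.1%. The shares are again near the background. By size, 27 of the 100 genes were higher after 60 min by 1 or more on the log2 scale, beside 13.19% of all genes. In the other direction 19 were lower by 1 or more, beside 14.11%. Nothing is read from the distance to these shares. LHCSR3.1 and LHCSR3.2 rose by 7.67 ± 0.28 and 7.18 ± 0.26 (log2 fold change ± SE), and Cre17.g720900 rose by 5.72 ± 0.36, having 33.8 CPM with acetate and 34.5 CPM in HSM on average at 300 min. LCIA, LCI1, HLA3, LCID and LCR1 rose by 5.52, 4.56, 3.67, 3.24 and 1.92 in this average of the media. In HSM alone the 60 min response of LCR1 was 0.77 on day 1 and -0.17 on day 2, against 3.15 and 1.82 with acetate. For LCIA, LCI1, HLA3 and LCID it was 4.09, 2.43, 2.82 and 3.62 in HSM on day 1, and 1.45, 0.41, 1.51 and 0.53 in HSM on day 2. Cre01.g004750 fell by 2.77, Cre16.g686750 fell by 2.74 and Cre13.g603550 fell by 2.44. Over the 19 genes lowered by 1 or more, the median 60 min response in HSM was -1.09 on day 1 and -0.996 on day 2. With acetate it was -1.44 and -1.82. Single genes differed: for Cre09.g389875 the response was 0.36 and -0.67 in HSM, and -0.13 and -3.94 with acetate. After 15 min the lowest was Cre13.g603550, which fell by 3.21 ± 0.12, followed by Cre03.g188400 and Cre06.g278176 at -2.59 and -2.38. With levels scaled by library size alone, the 60 min split was 46 higher and 31 lower, beside 53.3% and 25% of all genes on that scale.

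The HL-raised genes were mostly lower with acetate at 15 min. Of the 27 genes higher by 1 or more after 60 min of HL, 19 were lower and 2 higher with acetate at 15 min, with a median log2 fold change of -2.38. Of the 19 genes lowered by 1 or more, 7 were lower and 4 higher, with a median of -0.30, beside 65% lower, 13.1% higher and a median of -1.04 among the 1959 genes of all tested that HL lowered by 1 or more. No library was shared between the contrasts, but the HL groups and the choice of the 100 genes came from the same libraries. The genes in these groups had been chosen by their acetate difference. Nothing is therefore read from their distance to the values of all genes. Of the 1831 genes of all tested that HL raised by 1 or more, 25.2% were lower and 50.2% higher with acetate at 15 min, with a median of 0.518. Spearman's rho between the log2 fold changes was -0.428 over the 100 genes and 0.345 over all 13886, a description across genes, which are not independent replicates. On day 1 the HL-raised genes had a median acetate difference of -2.21 at 240 min and of -0.83 at 300 min, and on day 2 of -5.33 at 1440 min and -4.14 at 1500 min.

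**Figure D5:**
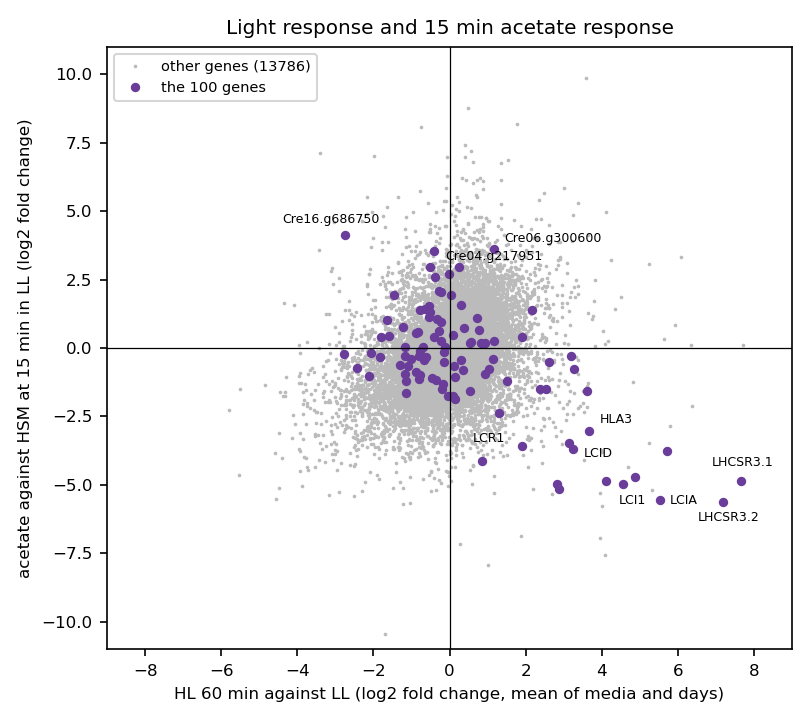
Log2 fold change of HL 60 min against LL, averaged over media and days (x axis), and of acetate against HSM at 15 min in LL (y axis), for the 100 genes (purple) and the 13786 other genes tested (grey). The strongly HL-raised genes LHCSR3.1, LHCSR3.2, LCIA, LCI1, HLA3 and LCID all sit at the lower right, while Cre16.g686750 lies at the upper left.

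The interaction of acetate with HL, averaged over days, asks whether the HL response differed between the media. It was formed from libraries that the rule used. The mean level of 47, 56 and 51 of the 100 genes lay under 1 CPM with acetate at 1440, 1455 and 1500 min, which limits the HL response that can be seen there. The counts of genes below are therefore a description, and nothing is read from their distance to the shares of all genes. After 15 min of HL, 9 of the 100 genes had a higher HL response with acetate and 48 a lower one, beside 24.1% and 21.2% of all genes. After 60 min, 24 were higher and 39 lower, beside 29.2% and 30.8%, and with levels scaled by library size alone 18 were higher and 68 lower, beside 6.39% and 63.2% of all genes on that scale. The largest such difference was in Cre03.g204577, with 0.58, 1.56 and 0.34 CPM with acetate at 255 min against 61.0, 65.2 and 117 CPM in HSM (interaction -5.47 ± 1.49, edgeR adjusted p = 0.00283). Cre10.g462816 and Cre10.g463500 followed at -4.03 and -3.54. For Cre03.g204577 the acetate libraries at 1455 min held 1 read in all, against 4787 in HSM, so the size of its interaction is limited by counting.

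After 60 min the carbon uptake and qE genes stood at the opposite end. LCI1 had an interaction of 6.31 ± 0.43 (log2, SE; edgeR adjusted p = 2.80e-14), LCIA of 6.04 ± 0.52 and LHCSR3.2 of 5.44 ± 0.47, so that HL raised them more in acetate cultures, from a much lower LL level. Cre06.g300600, Cre14.g623050 and Cre16.g655200 were the lowest, at -3.06, -2.21 and -2.15. By the HL groups above, 16 of the 27 HL-raised genes had a higher 60 min response with acetate and 3 a lower one, and of the 19 HL-lowered genes 0 had a higher and 10 a lower one in the edgeR test. Over all genes of the same groups, 34.4% of the HL-raised genes had a higher and 31% a lower response with acetate, and 31.2% of the HL-lowered genes had a higher and 21.6% a lower one.

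Averaged over media and light, day 2 levels were lower than day 1 levels in 97 of the 100 genes and higher in 1, Cre09.g391652, beside 37.8% and 32.5% of all genes. A gene whose acetate level alone fell lowers both this average and the score, so the count follows from the choice and nothing is read from it. The largest falls were those of Cre09.g405100, Cre04.g223100 and LCR1, at -4.03, -3.998 and -3.40 on the log2 scale, and LCID did not pass, at -0.13 (edgeR adjusted p = 0.264).

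On the CCM list, 41 of the 71 genes tested were lower and 9 higher with acetate at 15 min (median log2 fold change -0.57), beside 39.3% lower and 34.7% higher among all genes, and 36 were higher and 28 lower after 60 min of HL, beside 43.8% higher and 37.1% lower. Of 55 photoprotection genes, 19 were lower and 15 higher with acetate at 15 min, and 24 were higher and 27 lower after 60 min of HL. Of the 371 transcription factors, 123 were lower and 136 higher with acetate at 15 min, shares near those of all genes, and 177 were higher and 108 lower after 60 min of HL.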

How the data were processed

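The authors deposited read counts per gene for 42 TruSeq stranded mRNA libraries. Reads had been trimmed with BBduk, aligned with STAR (version 2.5.3 in the submitters' processing notes) to the version 5 Chlamydomonas transcriptome and counted with HTSeq-count (reverse strand). All 42 columns matched a sample. Genes reaching 1 CPM in 9 libraries or more were tested, 13886 in all. The score used TMM-normalised log2 CPM (prior count 2); members with low values entered like the others, and 24 of 100 had at least 1 CPM in all 42 libraries. Tests were edgeR 4.0.16 quasi-likelihood tests (R 4.3.3) on all 42 libraries with 1 coefficient per condition and Benjamini-Hochberg adjustment over all genes tested, checked on simulated data. Levels are given per library without length correction, so they compare samples, not genes. Precision is set by 3 libraries per condition; intervals and floors cover counting error only. No 2 replicates agreed within sampling noise (42 pairs, chi-square per degree of freedom 6.22 to 149). The named genes are the 15 lowest scores (examples given), listed genes, those at the limit, neighbours, and the 3 largest changes each way per test; a few others were chosen after seeing their values. Members and lists were chosen with earlier results of these data known. Gene names came from the study's lists, and gene order from a RefSeq table (v5.5), which held no symbols and matched 17738 of 17741 identifiers. The alternatives were RLE size factors, library size alone, no filter, DESeq2 1.42.0, limma-voom (limma 3.58.1), blocks for replicate and culture numbers, fewer libraries, and leaving out each library.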

Additional observations from a re-analysis of the deposited data

Results flagged for a closer look

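The HL response differed between the media, by the interaction test of edgeR, in 57 of the 100 genes after 15 min, beside 45.3% of all genes tested, and in 63 after 60 min, beside 60%, so that the 60 min count is near the background. Many of the genes were at a few reads with acetate on day 2, in libraries that the rule used, so nothing is read from the 15 min count either. After 15 min the interaction (log2, HL response with acetate minus that in HSM, averaged over days) was 3.29 for LHCSR3.2, 2.14 for LHCSR3.1 and 2.08 for Cre07.g346900. It was -5.47 for Cre03.g204577, -4.03 for Cre10.g462816 and -3.54 for Cre10.g463500. After 60 min it was 6.31 for LCI1, 6.04 for LCIA and 5.44 for LHCSR3.2, and -3.06 for Cre06.g300600, -2.21 for Cre14.g623050 and -2.15 for Cre16.g655200.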

How the results depend on the processing

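Membership depended on the scoring. Of the 100 genes, 62 stayed among the 100 lowest scores with library size alone, 61 with a filter of at least 1 CPM in all but at most 8 libraries, which tests fewer genes, and 60 with the mean in place of the least negative day difference; 81 to 99 stayed under the other scorings, and 88 to 99 when any 1 of 36 libraries was left out, with 62 kept every time. Library size alone moved the median acetate difference of all genes by up to 1.01 on the log2 scale, at 1440 min, where the median of the 100 genes was then -2.23 beside 1.02 for all genes. The counts of genes past the threshold stayed within 1.5 times under each alternative in all 6 tests: 65 to 78 at 15 min (72 as reported), 79 to 87 and 76 to 83 for HL of 15 and 60 min, 97 to 100 for the days, and 49 to 63 and 58 to 86 for the interactions. Of 1316 values of named genes under alternatives, 1315 kept their direction and call; LHCSR3.1 lost its 15 min interaction with limma-voom (2.07, adjusted p = 0.0623). With the replicate number as a block, the counts were 74, 84, 80, 98, 59 and 64, beside 72, 83, 80, 98, 57 and 63. Whether the numbers pair the samples is not settled. Same-numbered libraries deviated together (correlation above 0.1) in 4 of 21 pairs by replicate number, with a highest correlation of 0.384, and in 2 of 16 pairs by culture number. By replicate number 11 of 21 acetate libraries were most like the HSM library of their own number, and by culture number 7 of 16. With acetate on day 2 many of the genes are at a few reads, so that the size of the largest differences is limited by counting.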
